A study of Mus musculus with 2 samples.

Results

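Endothelial cells line the blood and lymphatic vessels of a tumour, and here they were picked out of 2 single-cell RNA libraries by their own transcripts. A barcode was counted as endothelial when it held 3 or more summed UMIs (unique molecular identifiers, 1 per captured RNA molecule) of Cdh5, Kdr, Egfl7, Plvap, Emcn and Pecam1, with 2 or more of these genes seen and their sum at 8 or more per 10000 UMIs. A barcode with any UMI of Ptprc, the pan-leukocyte phosphatase CD45, was left out. The cells were thus chosen by measured RNA levels of these 7 genes. This rule found 94 cells among 27972 barcodes kept for 500 or more UMIs, 200 or more genes and at most 20% mitochondrial UMIs, 67 of 14353 in the control library and 27 of 13619 in the UBD overexpression library. The tumours were grown under the skin of mice from MC38 colon carcinoma cells, a line of mouse origin, which the labels call a subcutaneous xenograft although line and host are both mouse. The control tumours and the tumours overexpressing UBD were minced, digested at 37 °C, cleared of red blood cells, strained and run on the 10x Chromium 3′ v3 chemistry. UBD (ubiquitin D, also FAT10; the mouse gene is Ubd) is a ubiquitin-like modifier that tags proteins for the proteasome. Mouse strain, sex, age, the number of animals per library, any pooling, the vector and its promoter are not stated in the labels.

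Tumour vessels grow mainly by sprouting, in which a leading tip cell follows vascular endothelial growth factor (VEGF) and trailing cells form the tube. VEGF receptors, the Tie receptors with their angiopoietin ligands, the Notch pathway and BMP9 signalling through ALK1 together set which cell leads and how mature the wall becomes. The same cells decide how leukocytes enter the tumour, through selectins, the adhesion molecules ICAM1 and VCAM1, chemokines and antigen presentation, most of which respond to interferons and inflammatory cytokines. Pericytes wrap the capillary wall from outside and are often caught together with endothelial cells when tissue is dissociated incompletely.

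Each condition is 1 library, so no difference between them has a replicate check, and condition and library cannot be told apart. Levels are CPM (UMIs of a gene scaled to 1000000 UMIs in all) of the UMIs summed over the cells. Bracketed ranges are 95% exact intervals that cover counting error only, for a level (Poisson), a ratio of 2 levels (conditional binomial) or a share (Clopper-Pearson). UMIs were counted at transcript 3′ ends, and levels are compared for 1 gene between groups, not between genes. The control library held 14890 deposited barcodes at a median of 4302 UMIs and the UBD overexpression library 14158 at 12006.5. Endothelial cells were closer in depth, with medians of 4820 and 6590 UMIs, and gave 460277 and 196553 UMIs in all. The 2 deepest control cells held 22.4% of the control total and the 2 deepest UBD overexpression cells 21.1% of theirs. The libraries shared 66 kept barcode sequences, and no shared barcode was endothelial in both. Ubd itself was counted at 0.623 CPM over all other control cells and 1.03 CPM over all other UBD overexpression cells. Whether the overexpression construct carries the 3′ end counted here is not stated, so this count checks the label in neither direction.

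The cells carried the RNA of blood vessel endothelium. Cdh5, the VE-cadherin of endothelial junctions, was at 556 CPM (490.1 to 629) in the control cells and 595 CPM (492 to 713) in the UBD overexpression cells, against 1.01 and 0.360 CPM in all other cells. Kdr, the main VEGF receptor, was at 202 CPM (163 to 248) and 300.2 CPM (229 to 387). Egfl7, a secreted vascular matrix protein, was at 1041 CPM (949.6 to 1138) and 753 CPM (637 to 885). Pecam1, the junction protein CD31, was at 343 CPM (292 to 401) and 519 CPM (423 to 630.0), and Emcn, the sialomucin endomucin, at 324 CPM (274 to 380.1) and 417 CPM (332 to 518). These genes chose the cells, so their excess over other cells is a description of the rule. Plvap, the diaphragm protein of fenestrae and caveolae, was the least particular of the 6 genes, at 504 CPM (441 to 573) in control endothelial cells and 54.0 CPM in control cells that carry Cdkn2a and no Ptprc. Cdkn2a, the p16/ARF locus taken here as the sign of tumour RNA, stood at 1820.5 CPM in those cells.

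Not every barcode was a pure endothelial cell, and the kinds of mixture differed between the libraries. Cdkn2a RNA was found in 44 of 67 control cells (65.7%) at 674 CPM (601 to 753), and in 15 of 27 UBD overexpression cells (55.6%) at 631 CPM (525 to 752). It was seen in 61.2% and 77.3% of all kept barcodes and in 40.5% and 45.9% of barcodes with Ptprc. A Cdkn2a UMI is thus common across both libraries and does not by itself mark a barcode as mixed. Splitting the barcodes, by criteria chosen after their values were seen, gave 3 kinds. In the control library 21 barcodes (31.3%, 20.6 to 43.8) held 3 or more UMIs of pericyte genes such as Rgs5, a G-protein regulator of pericytes. All 21 held Rgs5, 20 of them held Cdkn2a (911 CPM), and 11 held Cdh5. In the UBD overexpression library 1 of 27 barcodes (3.70%, 0.0937 to 18.97) was pericyte-marked, and it held no Rgs5 UMI. Another 4 control (5.97%) and 6 UBD overexpression barcodes (22.2%) passed only through Plvap, with Cdkn2a at 3455 and 1506 CPM. The remaining 42 control and 20 UBD overexpression cells held Cdkn2a at 242 and 296 CPM, with Cdh5 in 34 and 18 of them. Among these remaining cells 12 of 42 and 13 of 20 showed all 6 genes of the rule, while no control pericyte-marked barcode did. Comparisons between the libraries are given for all cells, with values for these remaining cells beside many of them.

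**Figure D1:**
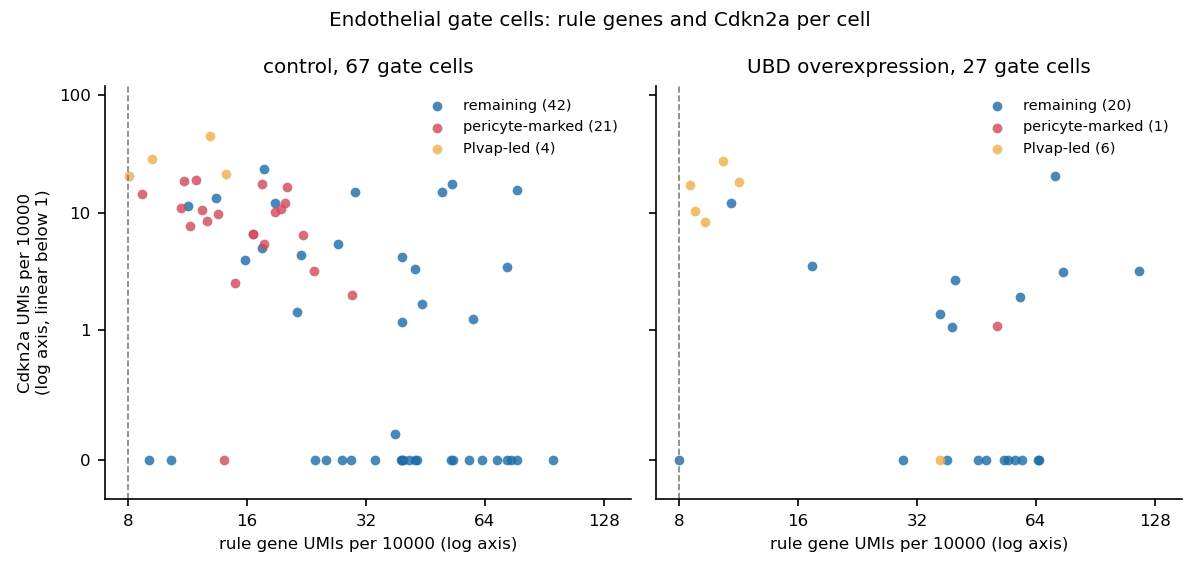
Each point is 1 endothelial barcode (gate cell, a barcode that met the rule), with its rule gene UMIs per 10000 on the horizontal log axis and its Cdkn2a UMIs per 10000 on the vertical axis (log above 1, linear below), coloured by kind, 1 panel per library and a dashed line at the limit of 8. The 21 control pericyte-marked barcodes sit low on the rule genes (median 16.5 per 10000) and 20 carry Cdkn2a, while the 42 remaining control cells have a median of 39.5.

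At the edge of the rule, the 4 control cells with 8 to 10 rule UMIs per 10000 held Cdkn2a at 1985 CPM and Cdh5 at 82.7 CPM. The 6 control barcodes just outside, at 6 to 8 per 10000, held 3008 and 10.8 CPM. In the UBD overexpression library the 4 cells just inside held 972 CPM of Cdkn2a and 110 CPM of Cdh5, and the 18 just outside 1850 and 25.4 CPM.

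RNA of other cell types was present at different levels. Of the 7 T and NK cell markers, Cd3e, Cd3d, Trac, Klrb1c and Ncr1 were at 0 in both sets, and the list summed to 19.6 CPM in control and 0 in UBD overexpression. All 4 B cell markers were at 0 in both. The 4 neutrophil markers summed to 30.4 and 10.2 CPM, and of the erythroid genes 1 UMI of Hba-a1 was seen, in control. The 10 macrophage markers summed to 1067 CPM in control and 2610 CPM in UBD overexpression cells, where 1 cell of 11242 UMIs supplied 59.3% of those UMIs. Without that cell the UBD overexpression sum was 1128 CPM. That cell was classed among the remaining cells, where the macrophage markers summed to 1210 and 2728 CPM. The 11 pericyte markers summed to 1071 and 117 CPM, and to 172 and 53.2 CPM in the remaining cells. The 6 fibroblast markers summed to 1136 and 580.0 CPM, and to 474 and 220.4 CPM in the remaining cells. Their part in the differences between the libraries was not tested. A doublet caller, Scrublet, marked none of the 94 cells.

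The control library held a larger share of endothelial barcodes. They were 0.467% (0.362 to 0.592) of kept control cells and 0.198% (0.131 to 0.288) of kept UBD overexpression cells, a ratio of 0.425 (0.261 to 0.673) and a difference of 0.269 percentage points (Newcombe-Wilson interval 0.135 to 0.409). The distance was smaller once other barcodes were set aside: the remaining cells alone made 0.293% (0.211 to 0.395) and 0.147% (0.0897 to 0.227). Pericyte-marked barcodes over the whole libraries were 1.41% and 1.67%. With every barcode thinned to 1000 UMIs, 28 of 13613 control (0.206%) and 16 of 13255 UBD overexpression barcodes (0.121%) met the rule, and the interval of that difference included 0 (control higher by 0.0850 points, from 0.188 higher to 0.0134 lower). A limit of 3 UMIs in 1000 is above 8 per 10000, so the thinned rule was stricter than the rule at full depth. A share of barcodes depends on how well vessels dissociate and on how many other cells are loaded, and neither was measured here.

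Beyond the 6 rule genes, control endothelial cells carried a broad vascular transcriptome. Of 5835 genes tested, 884 (15.1%) were 2-fold or more above all other control cells with an interval above 1. The rule chose the cells on this contrast, so the following members are given as a description of the cells. All 10 tested endothelial transcription factors (of 13 listed) and all 6 tested junction genes outside the rule were in the higher group. So were all 4 tested angiopoietin and Tie genes (of 5), 11 tip cell genes (of 12) and 8 capillary genes (of 10). Testing needed a minimum mean level over both groups, so a gene almost absent elsewhere was tested only when endothelial cells held it well above that. For such genes the higher call follows from this limit, and the full shares are no test of the lists. Listed genes at low levels, such as Erg (10.9 CPM), were not tested. Sox7, a SoxF factor of vascular identity, was at 215 CPM (175 to 262) against 0.570 CPM in other cells, and Sox17, its arterial relative, at 99.9 CPM (73.2 to 133) against 0.105 CPM. Esam and Cldn5, both tight junction proteins, were at 380.2 CPM (326 to 441) and 404 CPM (348 to 467). Tie1, the orphan Tie receptor, was at 149.9 CPM (117 to 189.7), Ptprb, the phosphatase VE-PTP that restrains Tie2, at 169 CPM (134 to 211), and Dll4, the Notch ligand of tip cells, at 206 CPM (167 to 252). Eng, the ALK1 co-receptor endoglin, was at 576 CPM (509 to 649) against 6.27 CPM.

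Some genes were almost confined to these cells among the populations set beside them, namely leukocytes (Ptprc), Cdkn2a cells and a matrix gene gate. That matrix gene gate, meant for fibroblasts, held 3839 control barcodes, of which 94.7% carried Cdkn2a, so it is not a clean fibroblast set. The 15 genes with the largest ratio of control endothelial level to the highest of those populations were Gpihbp1, Tmem252, Esam, Tie1, Fam167b, Adgrf5, Robo4, Gja4, Grrp1, Sox7, Dll4, Ptprb, Palmd, Myct1 and Cldn5. Gpihbp1, which carries lipoprotein lipase across the capillary wall, was at 506 CPM (443 to 576) in 28 of 67 cells, with no UMI in any of the 22 cells that held Rgs5. Adgrf5, an adhesion G-protein receptor, was at 237 CPM (194 to 286), Robo4, a vessel-stabilising guidance receptor, at 124 CPM (93.8 to 160.4), and Myct1 at 180.3 CPM (144 to 224). Gja4, the connexin 37 of arterial endothelium, behaved differently, at 882 CPM in the pericyte-marked barcodes and 41.4 CPM in the remaining control cells.

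**Figure D2:**
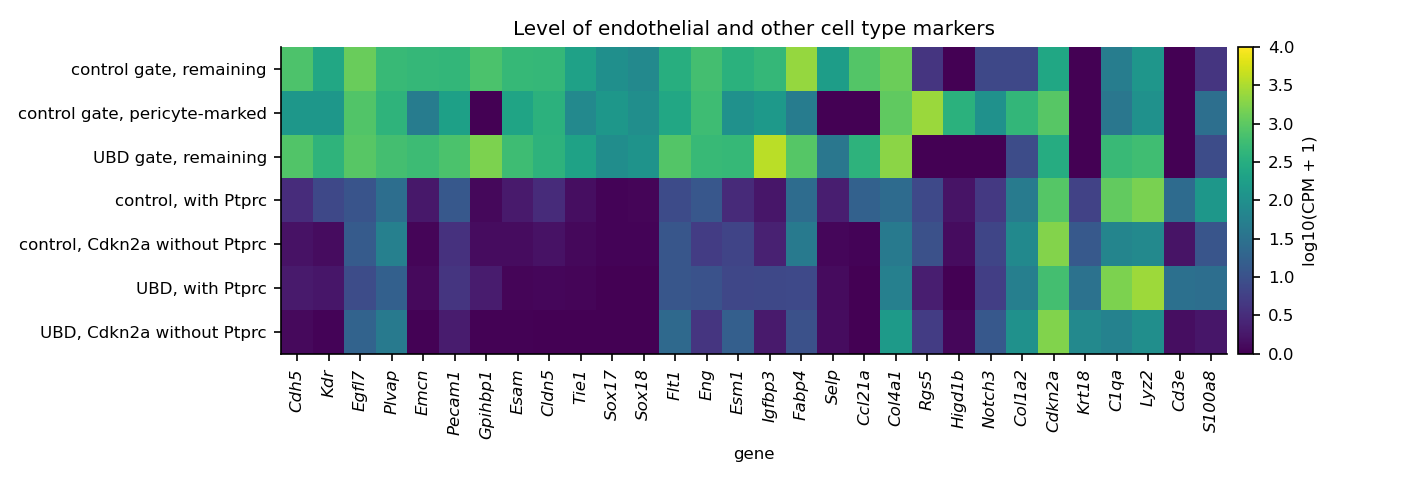
Colour gives the level, as log10 of CPM plus 1, of endothelial markers and markers of other cell types (columns) in the remaining endothelial barcodes, Ptprc cells and Cdkn2a cells of each library and in the control pericyte-marked barcodes (rows). Rgs5 stands out in the control pericyte-marked row (2469 CPM), Igfbp3 in the remaining UBD overexpression row (3914 CPM), and Cd3e is dark in all endothelial rows.

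In the files' annotation (mm10), Gpihbp1 lies on chromosome 15 at 75596628-75599481, Cdh5 on chromosome 8 at 104101625-104144511, Robo4 on chromosome 9 at 37401897-37415115 and Igfbp3 on chromosome 11 at 7206086-7213923. Of the 15 genes, 10 had a promoter in the RefSeq GRCm38.p6 table, which holds 250 bases before to 50 after each start. The core motif of ETS factors such as Erg and Fli1, GGAA on either strand, occurred in 9 of these 10 promoters and in 96.5% of all 27025 promoters, so its presence does not set them apart. Robo4 is shown because its promoter holds 4 matches (GGAA or its complement in capitals), at chr9:37401722-37402021 on the plus strand.
Robo4: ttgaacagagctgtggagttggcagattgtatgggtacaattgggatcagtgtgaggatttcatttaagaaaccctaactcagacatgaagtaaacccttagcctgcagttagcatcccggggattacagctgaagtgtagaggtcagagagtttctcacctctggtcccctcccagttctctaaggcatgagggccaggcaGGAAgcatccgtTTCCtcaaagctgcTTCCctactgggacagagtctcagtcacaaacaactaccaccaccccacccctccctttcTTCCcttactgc
In this window 3 of the 4 matches fall within a run of 30 bases. A match is a description of the letters, and no binding was measured.

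Control endothelial cells were not of 1 kind. Clustering of the 67 cells on their 1000 most variable genes gave 4 clusters. They are described here without a test because the same counts formed the clusters. Cluster 1 (25 cells, median 5461 UMIs) had rule genes at a median of 42.5 per 10000, Cdh5 in 22 cells and little Cdkn2a (62.2 CPM, 8 cells). Its leading genes were Slco2a1, a prostaglandin transporter, and the chemokines Cxcl9 (926 against 76.1 CPM in the other endothelial cells) and Cxcl10 (4690 against 599 CPM). Its lymphatic markers summed to 1955 against 108 CPM, its venous markers to 1582 against 523 CPM and its type I interferon genes to 9111 against 3632 CPM. The lymphatic sum rested mostly on Ccl21a, whose 269 control UMIs came from 3 cells, with 231 in 1 cell, so it does not describe the cluster as a whole. Cluster 4 (4 cells) was capillary-like by the marker list, with all 10 capillary genes detected. It was led by Cd36 and Fabp4, a fatty acid transporter and a fatty acid carrier of capillaries, with Fabp4 at 29088 against 390 CPM.

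The other clusters held more tumour and mural RNA. Cluster 3 (16 cells) was pericyte-like, with 11 of 11 pericyte markers detected, all 16 cells pericyte-marked and all 16 with Cdkn2a (925 CPM). Higd1b, Cox4i2 and Rgs5, known pericyte genes, led it with Col1a2 and Postn, and Rgs5 stood at 2548 against 73.5 CPM. Cluster 2 (22 cells) was shallower, at a median of 2921.5 UMIs, with a lower median of rule genes than any other cluster and Cdkn2a in 18 cells (1042 CPM). It was led by Mgp, Lgals7 and Ero1l, none of them an endothelial marker on the lists, and was given no name.

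Vessel types could be read in single cells. Ccl21a, a lymphatic chemokine with near-identical gene copies that the counting may split, came from 3 control cells with 231, 32 and 6 UMIs. All 3 also held Prox1, the master factor of lymphatic identity, and none held Gpihbp1. In UBD overexpression 1 cell held 51 Ccl21a UMIs without Prox1, and another held 30 UMIs of Lyve1, the lymphatic hyaluronan receptor, together with 8 of Prox1. Selp, the P-selectin of venules, was seen in 8 control cells, and 4 of these held 14 of the 17 control Ubd UMIs. Ubd was thus at 36.9 CPM (21.5 to 59.1) in control endothelial cells, with 52.9% of its UMIs in 1 cell, against 0.623 CPM in other control cells and 5.09 CPM (0.129 to 28.3) in UBD overexpression endothelial cells (1 UMI). Fabp4 was concentrated too, with 255, 211 and 104 UMIs in its 3 highest control cells of the 17 that held it.

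**Figure D3:**
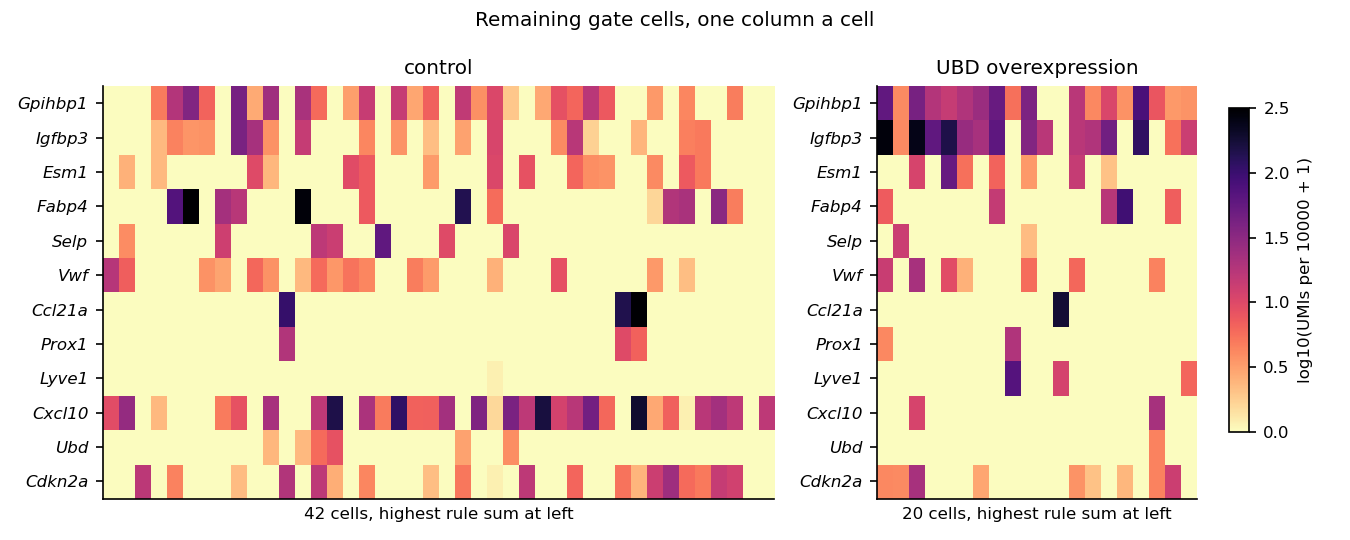
Colour gives log10 of UMIs per 10000 plus 1 for vessel-type genes, Cxcl10, Ubd and Cdkn2a (rows) in each of the 42 control and 20 UBD overexpression cells left after the pericyte-marked and Plvap-led barcodes were set aside, 1 column per cell with the highest rule sum at left. Ccl21a and Prox1 share 3 control columns, Fabp4 is high in a few others, and Igfbp3 is seen in 16 of the 20 UBD overexpression columns and 19 of the 42 control columns.

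Between the libraries, UBD overexpression endothelial cells had 216 genes (4.69%) 2-fold or more higher and 412 genes (8.94%) 2-fold or more lower than control cells, of 4606 tested, with a median log2 ratio of 0.01. In each pair of values below control comes first and UBD overexpression second. Among the gene lists, type I interferon, pericyte, chemokine, fibroblast and immediate early genes had the lowest medians, and, among lists with 4 or more tested genes, macrophage, tip cell and MHC class II genes the highest. The level of Gm42418, a ribosomal RNA overlap locus often read as a sign of library quality, was 13559 CPM in control and 4818 CPM in UBD overexpression endothelial cells, and its part in the differences was not tested.

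**Figure D4:**
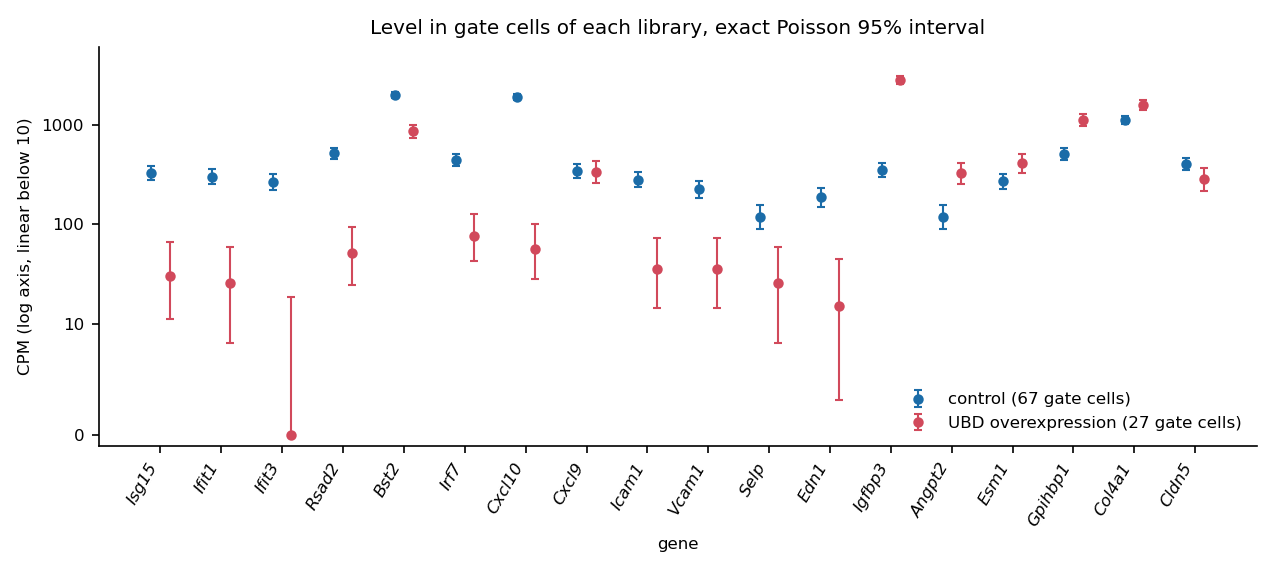
Points are levels in CPM (log axis, linear below 10) of 18 genes in the 67 control and 27 UBD overexpression endothelial barcodes (gate cells), with 95% exact Poisson intervals. Cxcl10 (1886 and 56.0 CPM) and Igfbp3 (352 and 2803 CPM) lie far apart in opposite directions, and the Cxcl9 intervals overlap.

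The type I interferon response was lower in the UBD overexpression endothelial cells almost throughout. Of 18 tested genes 16 were 2-fold or more lower, against 8.94% of all genes. None was called higher, and 1 lay above a log2 ratio of 0. The median log2 ratio of the list was −2.50, and −2.11 in the remaining cells. For 6 of the 18 genes 1 library had no UMI and was set to 3 UMIs for the ratio. Isg15, a ubiquitin-like interferon product, was at 328 CPM (278 to 385) in 41 of 67 control cells and 30.5 CPM (11.2 to 66.4) in 5 of 27 UBD overexpression cells, 10.7-fold (4.82 to 29.7) lower. Rsad2, the antiviral enzyme viperin, was at 513 CPM (449 to 582) and 50.9 CPM (24.4 to 93.6), 10.1-fold (5.38 to 21.3) lower. Irf7, the factor that amplifies the response, was at 441 CPM (382 to 506) and 76.3 CPM (42.7 to 126), 5.78-fold (3.42 to 10.5) lower. The control intervals lay wholly above those of UBD overexpression for all 3 genes.

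The antiviral Ifit family showed the same order, with a caution that its members are close copies whose reads may be split. Ifit1 was at 299.8 CPM (252 to 354) and 25.4 CPM (8.26 to 59.4), 11.8-fold (4.93 to 36.9) lower. Ifit3 was at 267 CPM (222 to 319) in 42 control cells and had no UMI in UBD overexpression, at least 17.5-fold lower taking 3 UMIs as the floor over the set. Ifit2 was at 169 CPM and 0, at least 11.1-fold lower. Bst2, the virus-tethering protein tetherin, was at 1994 CPM (1868 to 2128) and 859.8 CPM (735 to 999.7), 2.32-fold (1.97 to 2.75) lower, and was still seen in 24 of 27 UBD overexpression cells. Zbp1, a nucleic acid sensor, did not meet the call, at 202 against 173 CPM.

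The same order was seen outside the endothelium. The type I list had a median log2 ratio of −3.25 in Ptprc cells and −3.42 in Cdkn2a cells of the same libraries. Of the 19 listed genes 12 had a promoter in the RefSeq table, and 6 of these 12 held the letters GAAANNGAAA on either strand, a form of the interferon-stimulated response element, against 1079 of 27025 promoters (3.99%). None of the 10 endothelial promoters above held it. The windows below, from GRCm38.p6 and read on the gene's strand, show 1 match in capitals for each of the 6 genes, because these genes were lower together.
Ifit1 (chr19:34640775-34640804, plus strand): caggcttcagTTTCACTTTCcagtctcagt
Ifit3 (chr19:34583363-34583392, plus strand): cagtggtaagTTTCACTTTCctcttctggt
Isg15 (chr4:156200871-156200900, minus strand): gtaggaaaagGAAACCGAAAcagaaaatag
Rsad2 (chr12:26456553-26456582, minus strand): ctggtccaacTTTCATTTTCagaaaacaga
Oas1a (chr5:120907520-120907549, minus strand): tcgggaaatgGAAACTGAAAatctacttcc
Bst2 (chr8:71537577-71537606, minus strand): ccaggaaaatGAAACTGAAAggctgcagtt
Ifit1 and Ifit3 hold the identical run TTTCACTTTC, and Oas1a and Bst2 the identical run GAAACTGAAA. These matches are letters in a window, not measured binding sites.

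Genes of the interferon gamma response were less uniform. Of 11 tested genes 3 were called lower and none higher, with a median log2 ratio of −0.48. Cxcl10, the chemokine that draws CXCR3 T cells, was at 1886 CPM (1762 to 2016) in 56 of 67 control cells and 56.0 CPM (27.9 to 100.1) in 5 of 27 UBD overexpression cells, 33.7-fold (18.7 to 67.8) lower. Cxcl9, which binds the same receptor, was at 343 CPM (292 to 401) and 336 CPM (259.7 to 427), a ratio of 0.978 (0.723 to 1.31). Irf1, the early factor of the response, was at 319 against 137 CPM, 2.32-fold (1.53 to 3.65) lower, and Irgm1, an immunity GTPase, at 198 against 61.1 CPM. The GTPases Gbp2 and Iigp1 had values in the other direction, 97.8 against 188 CPM and 182 against 234 CPM, and neither met the call.

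MHC class I genes, which present peptides to CD8 T cells, were lower by small ratios. All 14 tested MHC class I genes lay below a log2 ratio of 0, with a median of −0.40 and 3 called lower. In the remaining cells 12 of 13 tested lay below 0, with a median of −0.28. The class I list was at −0.70 in Ptprc cells and −1.03 in Cdkn2a cells. B2m, the light chain of every class I molecule, was at 3018 CPM (2861 to 3181) and 2289 CPM (2083 to 2511), and in the remaining cells at 2900.3 and 2819.7 CPM. H2-K1 and H2-D1, the classical heavy chains, were at 1625 against 1231 CPM and 1799 against 1348 CPM. The 3 called genes were H2-Q4, H2-Q6 and Nlrc5, the class I transactivator (52.1 against 0 CPM), and the H2-Q genes are close copies whose reads may be split. Class II genes summed to 404 and 682 CPM, under the 1411 and 1257 CPM of other cells, and 1 of 4 tested, H2-Ab1, was called higher in UBD overexpression (76.0 against 153 CPM). The cell with most macrophage RNA held 16 of the 30 H2-Ab1 UMIs and 32 of the 64 Cd74 UMIs in that set. Without it H2-Ab1 was at 75.5 CPM and Cd74, the invariant chain, at 173 CPM, against 76.0 and 187 CPM in all control cells. Cd274, the checkpoint ligand PD-L1, was at 73.9 against 20.4 CPM, with 61.8% of its control UMIs in 1 cell, while Lgals9, another ligand on the list, was at 241 against 234 CPM.

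Adhesion molecules for leukocytes were split. Icam1, the integrin ligand for firm arrest, was at 280.3 CPM (234 to 333) in 37 control cells and 35.6 CPM (14.3 to 73.4) in 3 UBD overexpression cells, 7.87-fold (3.71 to 19.96) lower. Vcam1, the ligand of VLA-4, was at 226 CPM (185 to 274) and 35.6 CPM (14.3 to 73.4), 6.34-fold (2.97 to 16.2) lower. Selp was at 119 CPM (90.02 to 156) and 25.4 CPM (8.26 to 59.4), 4.70-fold (1.90 to 15.04) lower, resting on 8 and 2 cells. The order of all 3 was the same in the remaining cells, where Icam1 was 7.96-fold (2.59 to 39.7), Vcam1 8.27-fold (3.11 to 31.1) and Selp 4.44-fold (1.79 to 14.2) lower. Icam2, the constitutive endothelial family member, was at 176 against 178 CPM, a ratio of 1.01 (0.660 to 1.52), and Cd34, a sialomucin ligand of L-selectin, was 2.21-fold (1.67 to 2.93) higher at 232 against 514 CPM. In total 3 of 7 tested genes were called lower and 1 higher.

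Of the 8 tested chemokines 5 were called lower and none higher, with a median log2 ratio of −2.14 over all cells and −0.74 in the remaining cells. Besides Cxcl10 these were Cxcl12, Cxcl1, Ccl2 and Ccl5. The chemokine list was at −1.43 in Ptprc cells and −1.79 in Cdkn2a cells. Cxcl12, the CXCR4 ligand, was at 135 CPM (103 to 173) in 25 control cells and 0 in UBD overexpression, at least 8.83-fold lower. Cxcl1, a neutrophil chemokine, was at 545 against 102 CPM. Ccl2, the monocyte chemokine, was at 463 against 127 CPM over all cells and at 191 and 114 CPM in the remaining cells. It was higher in other cells of the control library, at 1489 CPM. Immediate early and heat shock genes, which respond to warm dissociation, had a median log2 ratio of −1.44, with 8 of 12 called lower and all 12 below 0. Jun was at 3148 against 1124 CPM, Atf3 at 2333 against 555 CPM and Dusp1 at 1445 against 402 CPM. The same list was at −0.82 in Ptprc cells and −0.76 in Cdkn2a cells, and its part in the other differences was not tested.

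Several sprouting genes were higher in the UBD overexpression cells. Of 12 tested tip cell genes 5 were called higher, against 4.69% of all genes, and 1 lower. Their median log2 ratio was 0.70, and 0.76 in the remaining cells. In the 23 control and 12 UBD overexpression cells without Cdkn2a the median was 1.91. The 2 deepest control cells both held Cdkn2a, so they were not among these. Igfbp3, an insulin-like growth factor binding protein of tumour vessels, was at 352 CPM (299.9 to 411) in 30 of 67 control cells and 2803 CPM (2574 to 3047) in 17 of 27 UBD overexpression cells, 7.96-fold (6.67 to 9.55) higher. It was 8.38-fold higher without the cell with most Igfbp3 in each library and 8.54-fold (7.08 to 10.3) in the remaining cells. Of the 17 UBD overexpression cells with Igfbp3, 16 also held Gpihbp1. Angpt2, the Tie2 ligand that loosens vessels, was at 119 CPM (90.02 to 156) and 326 CPM (251 to 416), 2.72-fold (1.87 to 3.98) higher. Its control UMIs lay mostly in the 2 deepest cells, and without them it was at 47.6 CPM in control. Trp53i11 was at 178 against 417 CPM, Nid2, a basement membrane linker, at 47.8 against 142 CPM, and Kcne3, a potassium channel subunit, at 13.0 against 76.3 CPM.

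The other tip cell genes were mixed. Esm1, a VEGF-induced proteoglycan and common tip marker, was at 269 CPM (224 to 321) and 412 CPM (327 to 512), a ratio of 1.53 (1.14 to 2.04) that fell short of the call, and without the 2 deepest control cells at 118 CPM in control. Apln, the apelin peptide of tip cells, was at 169 against 259 CPM, and Dll4 at 206 against 117 CPM over all cells and 172 against 167 CPM in the remaining ones. Pgf, a VEGFR1 ligand, was called lower, at 99.9 against 25.4 CPM. Among VEGF receptors Flt1, the decoy receptor VEGFR1, was 2.07-fold (1.60 to 2.68) higher at 285 against 590.2 CPM, and Flt4, VEGFR3, 2.98-fold (1.26 to 7.25) higher at 23.9 against 71.2 CPM. Kdr was used by the rule, and its ratio is given only as 1.49 (1.05 to 2.08). The ligands Vegfa and Vegfc were at 58.7 against 56.0 CPM and 43.5 against 50.9 CPM, with intervals that overlapped.

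Basement membrane genes, which code for the sheath around each vessel, lay mostly above 0. Of 13 tested, 9 lay above 0 with a median log2 ratio of 0.42, 2 were called higher and 1 lower, and in the remaining cells all 11 tested lay above 0 with a median of 0.64. Col4a1 and Col4a2, the 2 chains of the main collagen IV, were at 1110.2 CPM (1016 to 1211) against 1582 CPM (1411 to 1768) and 626 CPM (556 to 702) against 1129 CPM (986 to 1288). In the remaining cells these were 1.65-fold (1.41 to 1.93) and 2.12-fold (1.73 to 2.60) higher. Lamc1, the laminin gamma 1 chain, was 2.34-fold (1.61 to 3.41) higher at 130.4 against 305 CPM, and Lamb2 was lower at 80.4 against 10.2 CPM. Sparc, a collagen-binding matrix protein, was at 3269.8 against 3134 CPM. The same list had a median log2 ratio of −0.22 in Ptprc cells and 0.23 in Cdkn2a cells. Its sum was 6661 and 7988 CPM in endothelial cells, and 1158 and 1659 CPM in all other cells.

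The capillary, arterial and venous lists had median log2 ratios of −0.99, −0.86 and −0.75. The same genes were at −0.78, −1.43 and −0.52 in Ptprc cells and at −1.02, −0.89 and 0.22 in Cdkn2a cells. Of 8 capillary genes 4 were called lower (Fabp4, Rgcc, Meox2 and Kitl) and 1 higher. The higher one was Gpihbp1, at 506 CPM (443 to 576) and 1119 CPM (976 to 1277), 2.21-fold (1.83 to 2.67) higher over all cells and 2.23-fold (1.85 to 2.70) in the remaining ones. Rgcc, a cell cycle and angiogenesis regulator, was at 541 against 198 CPM. Fabp4 was at 1575 against 697 CPM, with 35.2% of its control UMIs in 1 cell and 49.6% of its UBD overexpression UMIs in 1. Of 5 arterial genes tested 2 were called lower, Gja4 (232 against 10.2 CPM) and Cxcl12. For Gja4 the remaining cells held 41.4 and 15.2 CPM, too few UMIs for a call. The Notch target Hey1, another arterial marker, was seen in 12 control cells and in none of UBD overexpression. Of 6 venous genes 2 were called lower, Selp and Vcam1, while Vwf was at 148 against 107 CPM. Lyve1 was at 1 UMI in control and 39 in UBD overexpression, in 3 cells, and Prox1 at 8 and 9 UMIs.

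In the BMP and ALK1 list, which stabilises vessels, the genes called lower were targets and an inhibitor of the pathway. Id1 and Id3, direct targets of BMP9 and ALK1, were at 543 CPM (478 to 615) against 142 CPM (94.7 to 206) and 639 CPM (568 to 716) against 254 CPM (189 to 335). Smad7, the inhibitory SMAD, was at 287 against 71.2 CPM, and these were the 3 called lower among 8 tested. In the remaining cells Id1 was 2.58-fold (1.67 to 4.16), Id3 1.51-fold (1.06 to 2.20) and Smad7 1.87-fold (0.957 to 3.98) lower, so only Id1 kept a 2-fold difference there. Among the receptors Acvrl1, which encodes ALK1, was at 41.3 against 45.8 CPM, Bmpr2 at 97.8 against 127 CPM and Eng at 576 against 346 CPM, and Tgfbr2 was called higher at 69.5 against 148 CPM. In the Notch list Hes1, a target gene, was called lower of 7 tested, at 354 against 117 CPM, while Notch1 was at 126 against 142 CPM and Notch4 at 58.7 against 71.2 CPM. Tek, the receptor Tie2, was at 43.5 against 40.7 CPM, and Tie1 at 149.9 against 137 CPM.

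Among transcription factors 1 of 10 was called lower and 1 higher. Klf2, the shear stress factor, was at 1369 CPM (1264 to 1479.9) and 580.0 CPM (478 to 697), 2.36-fold (1.93 to 2.91) lower, and 1.79-fold (1.41 to 2.30) in the remaining cells. Elk3, an ETS repressor, was at 99.9 against 229 CPM. Its family members Ets1 and Fli1 were at 213 against 321 CPM and 80.4 against 86.5 CPM, and Sox18 at 73.9 against 81.4 CPM. No junction gene of 6 was called, with Cldn5 at 404 against 285 CPM and Esam at 380.2 against 422 CPM. Of 12 genes of vascular tone and permeability, Edn1, the vasoconstrictor endothelin 1, was 12.2-fold (4.05 to 60.5) lower at 187 against 15.3 CPM. The 3 UBD overexpression UMIs came from 1 barcode. Edn1 was seen in 31 of 67 control cells but in 15 of the 42 remaining ones, so many of its barcodes were pericyte-marked or Plvap-led. It was seen in 0 of the 20 remaining UBD overexpression cells. Ace was also called lower (52.1 against 5.09 CPM) and Ptgis, prostacyclin synthase, higher (32.6 against 127 CPM), although Ptgis was at 19.1 and 38.0 CPM in the remaining cells and 113 CPM in control Cdkn2a cells. Nos3, the endothelial nitric oxide synthase, was at 47.8 against 50.9 CPM. Among caveolar genes Cav2 was called higher of 6, at 56.5 against 127 CPM, and Cav1 was at 339 against 458 CPM.

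Few cell cycle or glycolysis genes were called. Of 7 mitotic genes 1 was called higher (Tpx2, 32.6 against 76.3 CPM) and none lower, with Top2a at 60.8 against 86.5 CPM and Mki67, seen in 9 and 5 cells, at 36.9 against 40.7 CPM. Of 6 replication genes 1, Tyms, was called higher, and of 10 hypoxia and glycolysis genes 1, Bnip3, was called lower (80.4 against 30.5 CPM). The control Bnip3 UMIs lay mostly in the 2 deepest cells, and without them Bnip3 was at 30.8 CPM in control. Ldha, lactate dehydrogenase A, was at 656 against 707 CPM. Of 7 lipid genes Stab1, a scavenger receptor, was called higher with Gpihbp1 (60.8 against 137 CPM), Fabp4 lower, and Scarb1 was at 71.7 against 66.1 CPM.

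**Figure D5:**
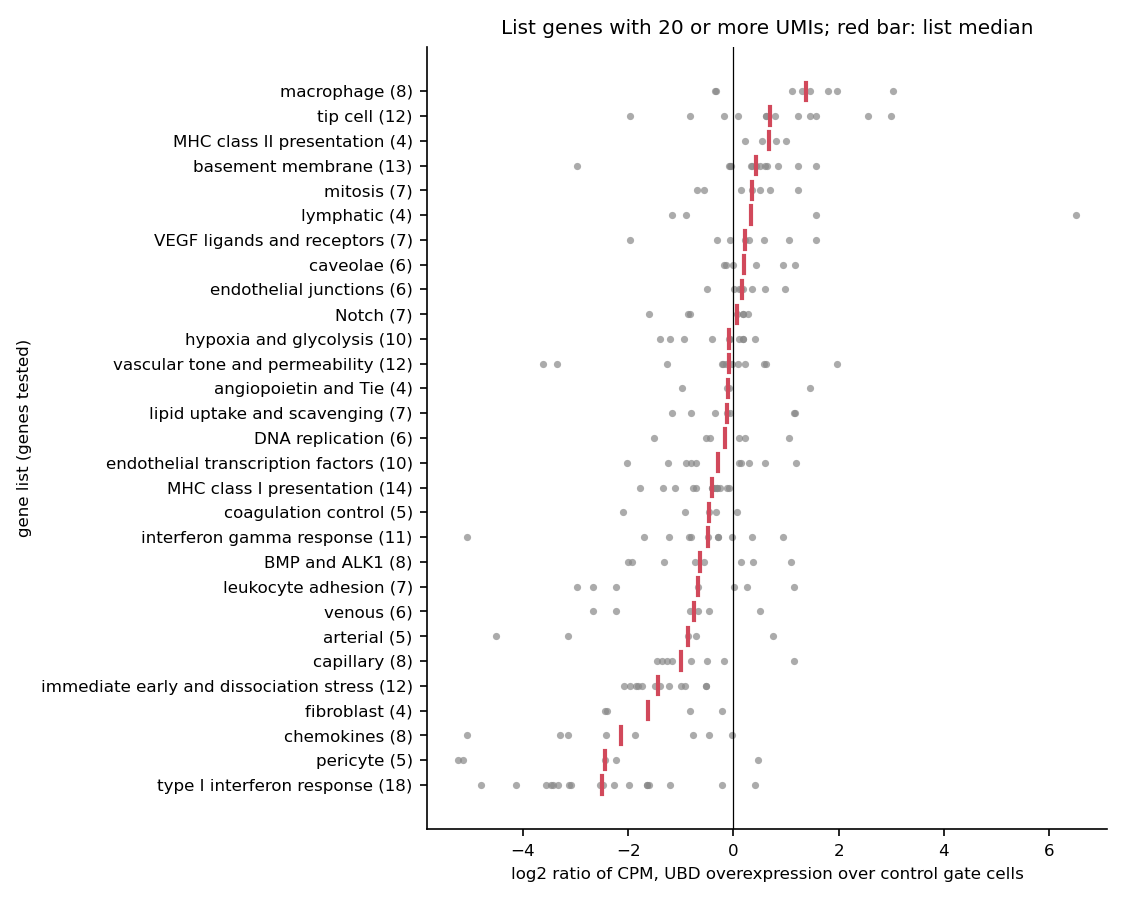
Log2 ratio of UBD overexpression over control endothelial cells for each tested gene of each list, 1 point per gene, with the list's median as a bar. Type I interferon (median −2.50), chemokines (−2.14) and immediate early genes (−1.44) lie below 0, and tip cell (0.70) and basement membrane (0.42) genes above.

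In the remaining cells several single calls named above were not met, because the ratio was nearer to 1 or fewer than 20 UMIs were left. Irf1 was there at 331 and 167 CPM, H2-Q4 at 271 and 152, Meox2 at 92.3 and 45.6, and Kitl at 108 and 60.8 CPM, in control and UBD overexpression. Lamb2 was at 54.1 and 15.2 CPM, Ccl5 at 44.6 and 7.60, Ace at 28.7 and 0, Stab1 at 86.0 and 167, Oas1a at 38.2 and 7.60, and Tyms at 76.4 and 98.8 CPM. The direction of all these was the same as over all cells. Col4a2 and Ets1 met the call for higher there and not over all cells, with Ets1 at 216 and 471 CPM. Dusp1 was 2.14-fold (1.64 to 2.81) and Bnip3 13.8-fold (2.31 to 562) lower, while Vegfa was at 35.0 and 15.2 CPM and Nos3 at 35.0 and 76.0 CPM. The Bnip3 ratio rests on the 2 deepest control cells, which are among the remaining cells. Without these 2, Bnip3 over all control cells fell from 80.4 to 30.8 CPM.

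Some of the largest ratios between the libraries rested on 1 cell or on the pericyte-marked barcodes. Among the 8 highest genes, Saa3, Wfdc17 and Ccl8 took 99.2%, 98.2% and 98.9% of their UBD overexpression UMIs from 1 cell, the same cell that carried most macrophage RNA. Peg3, an imprinted zinc finger gene, was at 17.4 CPM (7.504 to 34.2) and 265 CPM (198 to 347), 15.01-fold higher without the highest cell of each library. Mest, another imprinted gene, was at 104 CPM (76.9 to 138) and 382 CPM (300.1 to 478), seen in 18 of 67 and 20 of 27 cells and 2.998-fold (1.97 to 4.58) higher in the remaining ones. Svil, supervillin, was at 45.6 against 183 CPM, with 55.6% of its UBD overexpression UMIs in 1 cell, and at 38.2 against 76.0 CPM in the remaining cells. Trf, transferrin, was at 15.2 against 275 CPM over all cells and 19.1 against 15.2 CPM in the remaining cells. Igfbp3 was the eighth of these genes.

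Among the 8 lowest genes 4 were high in the control pericyte-marked barcodes. Rgs5 was at 574 CPM (506 to 647) over all control cells, 2469 CPM in the pericyte-marked ones and 0 in UBD overexpression, at least 37.6-fold lower. Cox4i2 was at 280.3 CPM and 0, with 1183 CPM in pericyte-marked and 9.55 CPM in the remaining control cells. Postn, the matrix protein periostin, was at 345 CPM and 0, with 1493 and 0 CPM, and Acta2, smooth muscle actin, at 180.3 against 5.09 CPM, with 432 and 118 CPM. The others were Cxcl12, Ifit2, Ifit3 and Cxcl10, all present in the remaining control cells, at 153, 213, 264 and 2391 CPM.

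With each cell thinned to 1000 UMIs, which left out 2 shallower cells in each library, the shares of cells with a UMI did not always have the order of the levels. Cldn5 was seen in 27.7% of control and 28.0% of UBD overexpression cells and Vwf in 10.8% and 12%, although both levels were lower in UBD overexpression. Igfbp3 was seen in 13.8% of 65 control and 48.0% of 25 UBD overexpression cells, and in 0.0901% and 0.261% of Ptprc cells, whose median depths were 3879 and 6282 UMIs. Unthinned, it was seen in 44.8% and 63.0% of endothelial cells. Gpihbp1 was seen in 26.2% and 48.0% and Col4a1 in 55.4% and 84.0%. Cxcl10 was seen in 53.8% and 8.0% of endothelial cells, and in 36.9% and 12.5% of Ptprc cells. Cdh5 was seen in 29.2% and 40.0%, and Cdkn2a in 36.9% and 36.0%.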

How the data were processed

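Single-cell RNA was profiled in 2 libraries, 1 of control and 1 of UBD overexpression MC38 tumours. The deposited values are raw UMI counts per gene and barcode, made by the authors with Cell Ranger and STAR on mm10, per the submitters' processing notes, and the file headers give software version 3.1.0. Barcodes with 500 or more UMIs, 200 or more genes and at most 20% mitochondrial UMIs were kept, no doublets were removed, and Scrublet calls served as an alternative. UMIs were summed over cells to CPM. A gene was tested when its mean CPM was 20 or more (endothelial against other cells) or with 20 or more UMIs over both sets (between libraries), and called at 2-fold or more with an interval that excludes 1. With 1 library per group no test was possible, so there are no p-values. Besides list members, the named genes are the 15 with the largest ratio to the other populations (50 or more UMIs and CPM) and the 8 highest and 8 lowest between libraries (50 or more UMIs, 100 or more CPM). Rule genes, sex-linked, mitochondrial, ribosomal and Gm or Rik genes were left out of that ranking. Clusters are Leiden clusters at resolution 0.8. The members and the gene lists were chosen with earlier results of these data known. One listed gene, Mx2, had no row. On simulated data the calls recovered 98% of 200 changed genes between libraries, with 2.42% of unchanged genes called, and 100% and 0.66% against other cells. The simulated sums varied by counting error only, without differences between cells. These shares therefore do not give the rate of false calls in the real cells, where few cells can supply most UMIs of a gene. Python 3.11.15, NumPy 2.4.6, pandas 2.3.3, SciPy 1.17.1 and scanpy 1.11.5 were used. Promoter letters came from the RefSeq GRCm38.p6 table.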

Additional observations from a re-analysis of the deposited data

How the results depend on the processing

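Most values kept their size under the alternatives. Of 120 control levels of named genes under other settings 94 stayed within the counting interval and 26 moved, 21 of them upward. Of 253 list medians 223 stayed within 1.5-fold, 28 moved and 2 reversed. The median log2 ratio of the type I interferon list lay between −2.95 and −2.04 throughout.

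The counts of genes followed the filter on low values. Higher genes in UBD overexpression numbered 366 with 5 or more UMIs and 33 with 100 or more, against 216 reported, and lower genes 111 with 100 or more and 179 in cells without Cdkn2a, against 412. Against other control cells, 1513 genes were higher and 734 lower at a mean of 5 CPM or more, and 176 and 83 at 100 CPM or more, because fewer or more genes were tested. The control share was 0.341% with 5 or more UMIs of 3 or more rule genes, 0.334% at 16 per 10000, 0.325% without pericyte-marked barcodes and 0.206% after thinning, and the UBD overexpression share 0.121% after thinning. The difference was −0.131 points without pericyte-marked barcodes and −0.0850 after thinning, where 3 UMIs in 1000 made the rule stricter. The chemokine median was −0.67 in cells without Cdkn2a and −0.96 without pericyte-marked barcodes, and the tip cell median 1.91 in cells without Cdkn2a. The setting without Cdkn2a kept 23 control and 12 UBD overexpression cells and left out the 2 deepest control cells. The fibroblast median of −1.62 reversed to 0.0019 without pericyte-marked barcodes, and the macrophage median of 1.37 to −1.57 at 16 per 10000. The cause of these shifts was not tested. At 16 per 10000 the barcodes left out included the UBD overexpression cell with most macrophage RNA. Its rule genes stood at 8.01 per 10000. Leaving out pericyte-marked barcodes, Plvap, the 2 deepest control cells or the highest cell of a gene was chosen after seeing the data. No paired analysis was possible because each group has 1 library. Depth limits single genes: in UBD overexpression cells 3 UMIs are 15.3 CPM.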
